A study of Rattus norvegicus with 9 samples.

Results

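The genes described here are 10 genes of the sebaceous gland, the oil gland that opens into the hair canal: MC5R, FAR1, FAR2, AWAT1, AWAT2, DGAT2L6, SOAT1, ACSBG1, MGST1 and FA2H. They were taken by name from a table of read counts for 23480 gene symbols. All 10 were in the table, and all 10 were among the 14933 genes with enough counts to be tested. RNA was measured in the skin of 9 male Wistar rats, 4 old (24 months) and 5 young (6 months), each sample from a different animal. Wistar is an outbred laboratory strain, no animal is labelled as treated or genetically altered, and the labels do not say from which part of the body the skin came. The comparison throughout is old against young.

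Sebocytes, the cells of the gland, fill with lipid droplets and then burst to release sebum, which in rodents is rich in wax esters, sterol esters and triglycerides. A wax ester joins a fatty acid to a fatty alcohol: acyl-CoA synthetases activate the fatty acid, fatty acyl-CoA reductases (FAR1, FAR2) make the alcohol, and wax alcohol acyltransferases (AWAT1, AWAT2) join them. SOAT1 joins fatty acids to cholesterol, FA2H adds a hydroxyl group to fatty acids, and MC5R is the melanocortin receptor through which the gland's secretion is known to be stimulated in rodents.

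Total counts were 20.1 to 34.1 M in old libraries and 17.3 to 20.2 M in young ones (M, a count of 1000000). Levels are given as counts per 1000000 counts (CPM), scaled between samples by the TMM method, and depend on transcript length, so they are compared between samples and not between genes. The labelled tissue was read against its keratins. KRT5, of basal keratinocytes, averaged 2369 ± 571 CPM in old and 3804 ± 906 CPM in young skin (SD, n = 4 and 5), and KRT10, of suprabasal ones, was at 6866 CPM or more in every sample. Sebocyte markers outside the 10 genes were present as well. KRT79, a keratin of the sebaceous duct, averaged 961 ± 406 CPM in old and 1124 ± 312 CPM in young skin. ELOVL3, a fatty acid elongase of sebocytes, averaged 191 ± 107 CPM in old and 989 ± 376 CPM in young skin. Of 28 such markers, 27 were in the table and 25 were tested.

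Of the 10 genes, 2 fell in old skin, MC5R and FA2H, and 0 rose. DESeq2 and limma-voom likewise called 0 rises, and at an unadjusted p under 0.05 edgeR gave 0 rises and 3 falls. A gene was called when its adjusted p was under 0.05 in edgeR's quasi-likelihood test with Benjamini-Hochberg adjustment over all genes. By that rule 4.41% of all genes tested fell and 9.62% rose. The log2 fold changes of the 10 genes, old over young, had a median of -0.55, against -0.05 over all genes tested. Of the 10, 7 were negative, as were 8103 of all 14933 genes tested. The 10 values ran from -1.64 for FA2H to 1.42 for DGAT2L6, so the 10 genes did not share 1 direction. In bulk tissue such as this, fewer sebocytes and less RNA per sebocyte cannot be told apart. RNA of other cell types also differed with age: the summed level of 14 adipocyte markers was 4273 to 9844 CPM in old and 985 to 1758 CPM in young skin, 12 of the 14 rose, and none was at 0 in any sample. With the adipocyte score as a covariate edgeR called 0 genes of either direction across the table, the 2 falls included (738 genes had an unadjusted p under 0.05), so that age and adipocyte content cannot be told apart in these 9 samples.

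**Figure D1:**
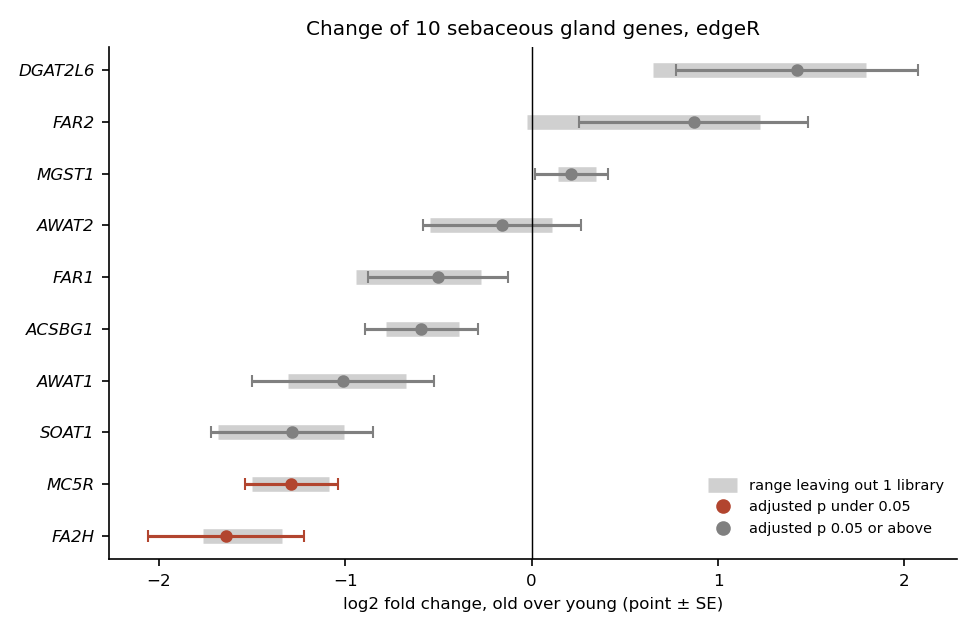
Log2 fold change, old over young (x axis), of the 10 sebaceous gland genes (y axis). Points are edgeR estimates with their SE, red where the adjusted p is under 0.05, and grey bands span the estimates when each library is left out in turn. MC5R and FA2H are the 2 red points, at -1.29 and -1.64; the bands of AWAT2 and FAR2 cross 0.

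MC5R, a receptor coupled to cyclic AMP and the signalling input among the 10 genes, was lower in every old sample than in every young one. It stood at 5.55, 4.83, 8.19 and 3.75 CPM in old skin (replicates 1 to 4), against 10.2, 18.0, 12.1, 13.9 and 14.04 CPM in young skin (replicates 1 to 5). Old replicate 3 was the nearest to the young range and old replicate 4 the farthest from it. All old below all young held for 6.51% of the genes tested. The mean was 5.58 ± 1.89 CPM in old and 13.7 ± 2.88 CPM in young skin (SD, n = 4 and 5), a log2 fold change of -1.29 ± 0.25 (SE, adjusted p = 0.00887, edgeR). These levels rest on 94 to 282 counts per old library and 198 to 316 per young one. The fall was called whichever single library was left out, with log2 fold changes of -1.5 to -1.09. With the adipocyte score as a covariate it was -0.45 (adjusted p = 0.932).

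Around MC5R, 15 genes of melanocortin signalling were tested, of which 0 fell and 4 rose, with a median log2 fold change of 0.09 (0 fell at an unadjusted p under 0.05, in DESeq2 or in limma-voom either). MC2R, the receptor for corticotropin, averaged 8.09 ± 3.69 CPM in old and 0.739 ± 0.471 CPM in young skin, a log2 fold change of 3.43 ± 0.46 (adjusted p = 0.00203). Its accessory protein MRAP averaged 4.66 ± 1.58 CPM in old and 0.591 ± 0.353 CPM in young skin, and the related MRAP2 averaged 1.64 ± 0.416 CPM in old and 0.606 ± 0.241 CPM in young skin. ADCY6, an adenylyl cyclase, was 0.65 ± 0.12 higher on the log2 scale (adjusted p = 0.00783). The lowest old value of MC2R was 3.91 CPM and the highest young value 1.55 CPM. MC2R and MRAP are also expressed by rodent adipocytes, whose markers were higher in old skin. In the fit that held the adipocyte score, log2 fold changes were 1.27 for MC2R, 0.25 for MRAP, 2.19 for MRAP2 and 0.17 for ADCY6. Without that score, those of MRAP and MRAP2 were 2.96 and 1.43. The fit holding the score called none of the 4, nor any other gene. The part of adipocytes in the 4 rises was not tested beyond it. POMC, the precursor of the melanocortin peptides, was low in both ages, at 0.645 ± 0.326 CPM in old and 0.789 ± 0.243 CPM in young skin (log2 fold change -0.32, adjusted p = 0.640). MC3R had no count in any sample, and MC1R was not matched.

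The reductases FAR1 and FAR2 turn activated fatty acids into the alcohols that wax esters need, and FAR1 also supplies ether lipid synthesis. FAR1 stood at 125.7, 68.9, 232 and 76.9 CPM in old skin, against 124, 274, 143, 160 and 187 CPM in young skin. Old replicates 2 and 4 were below every young sample, while old replicates 1 and 3 lay within the young range. Its log2 fold change was -0.50 ± 0.37 (adjusted p = 0.405). In the rat annotation FAR1 overlaps the gene model LOC120099910 and has a pseudogene, and reads shared with these cannot be told apart. The annotation used for the counts is not given, so whether FAR1's counts include such reads is not known.

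FAR2 stood at 9.82, 2.16, 36.9 and 12.2 CPM in old skin, against 5.07, 10.4, 6.60, 10.2 and 9.59 CPM in young skin. Old replicate 3 was far above all others and old replicate 2 below all others, so the old range enclosed the young one. The log2 fold change was 0.87 ± 0.61 (adjusted p = 0.375), and without old replicate 3 it was -0.025. The count of FAR2 over that of FAR1 within a sample, in which library size cancels, was 0.0781, 0.0313, 0.159 and 0.158 in old skin, against 0.0407, 0.0380, 0.0461, 0.0639 and 0.0512 in young skin. In 3 of 4 old samples this ratio was above every young one, and in old replicate 2 it was below them. Its log2 was 0.91 higher in old than in young samples (exact permutation test, two-sided, p = 0.127, adjusted over 2 ratios 0.127). Without old replicate 2, the 1 old sample below the young ones, the difference was 1.41. The old ratios left were then all above the young ones. The exact p was thereby fixed at 0.0179, the smallest that this split can give, and is no further evidence. Without old replicate 3 or old replicate 4 the difference was 0.63 (exact p = 0.286 in both).

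Ether lipid synthesis uses the same fatty alcohols. Of 15 ether lipid genes tested, 4 fell and 1 rose (median log2 fold change -0.11). The list holds genes of synthesis, of breakdown and of peroxisomal import. GNPAT, the peroxisomal acyltransferase that opens the pathway, averaged 83.3 ± 9.78 CPM in old and 149 ± 33.5 CPM in young skin, with no overlap (log2 fold change -0.84 ± 0.17, adjusted p = 0.0116). TMEM86A, a lysoplasmalogen hydrolase, fell by 1.24 on the log2 scale (SE 0.23, adjusted p = 0.00761). TMEM189, the plasmalogen desaturase, fell by 0.46 (adjusted p = 0.0315), a call lost when any of 6 libraries was left out (adjusted p up to 0.126). AGMO, which cleaves alkylglycerols, rose, with 8.20 ± 1.53 CPM in old and 1.57 ± 0.360 CPM in young skin (log2 fold change 2.38 ± 0.23, adjusted p = 0.00117). The fourth gene that fell, SELI (an ethanolamine phosphotransferase), was outside the naming rule and is given because the count is small.

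**Figure D2:**
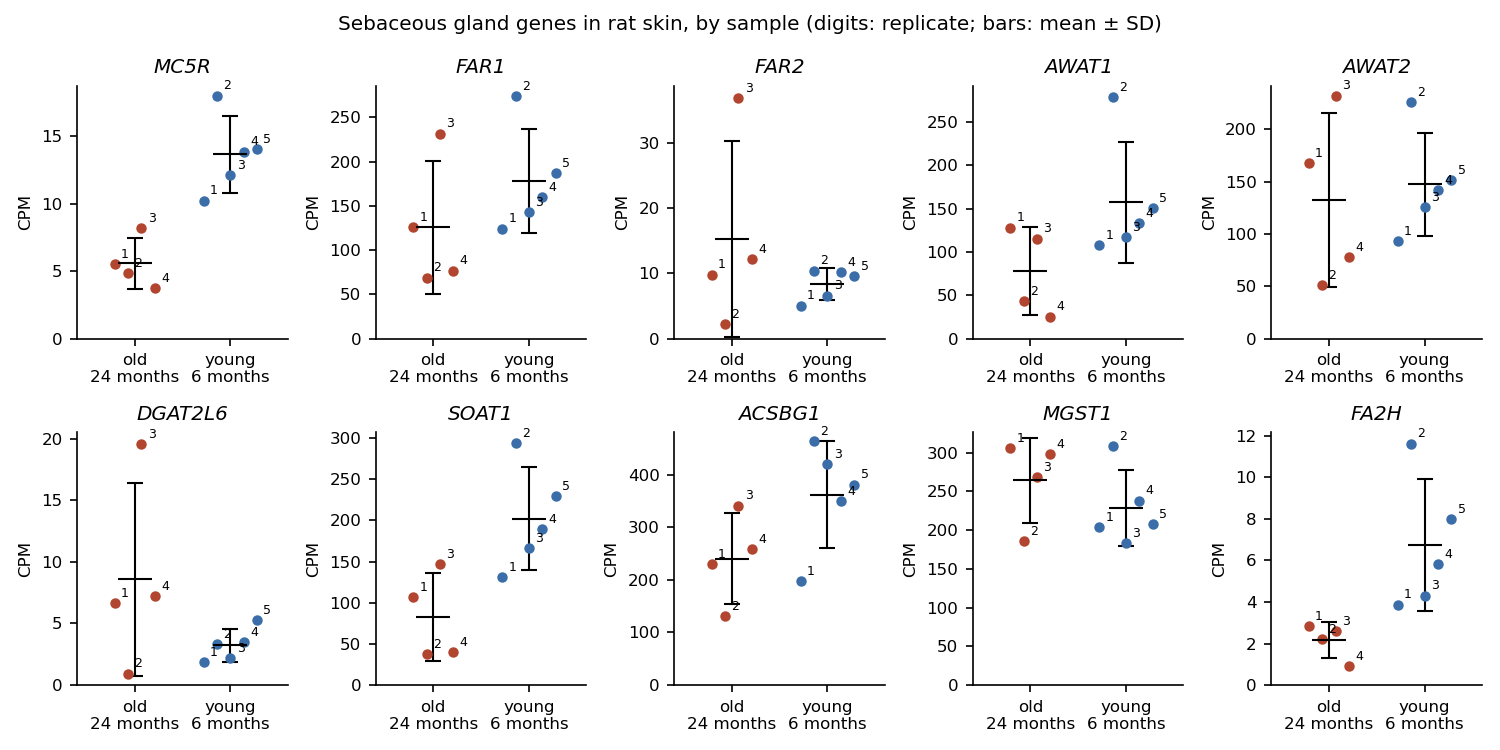
CPM of the 10 genes in each sample (y axis, linear, from 0), old left of young. Digits are replicate numbers and bars the mean ± SD (n = 4 old, n = 5 young). The groups of MC5R and FA2H do not overlap; old replicate 3 is the highest old sample of FAR2 (36.9 CPM) and DGAT2L6 (19.6 CPM).

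AWAT1 and AWAT2, which join a fatty alcohol to an activated fatty acid, and DGAT2L6, a related acyltransferase of the DGAT2 family, lie near one another on the rat X chromosome. Between the outer pair, AWAT2 and AWAT1, RefSeq's GRCr8 assembly places OTUD6A, LOC108349172, IGBP1 and DGAT2L6. The 300 bases around the start of each of the 3 genes (250 before, 50 after; RefSeq, GRCr8) are shown because the ratio of AWAT2 to AWAT1 differed with age. Capitals mark the matches to the motifs listed after the sequences.
AWAT1 (chrX:69708036-69708335, plus strand): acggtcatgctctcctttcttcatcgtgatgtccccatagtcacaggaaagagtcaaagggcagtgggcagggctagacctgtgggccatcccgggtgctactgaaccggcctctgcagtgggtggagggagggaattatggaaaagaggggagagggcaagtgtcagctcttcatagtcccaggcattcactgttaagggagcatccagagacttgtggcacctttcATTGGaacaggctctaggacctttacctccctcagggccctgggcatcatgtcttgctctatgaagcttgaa
AWAT2 (chrX:69530615-69530914, minus strand): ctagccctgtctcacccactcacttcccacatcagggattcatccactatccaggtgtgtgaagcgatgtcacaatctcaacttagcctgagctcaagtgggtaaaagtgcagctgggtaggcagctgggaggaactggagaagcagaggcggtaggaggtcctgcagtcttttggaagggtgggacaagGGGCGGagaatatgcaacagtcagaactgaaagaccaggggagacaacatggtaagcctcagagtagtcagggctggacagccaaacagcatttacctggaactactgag
DGAT2L6 (chrX:69654269-69654568, plus strand): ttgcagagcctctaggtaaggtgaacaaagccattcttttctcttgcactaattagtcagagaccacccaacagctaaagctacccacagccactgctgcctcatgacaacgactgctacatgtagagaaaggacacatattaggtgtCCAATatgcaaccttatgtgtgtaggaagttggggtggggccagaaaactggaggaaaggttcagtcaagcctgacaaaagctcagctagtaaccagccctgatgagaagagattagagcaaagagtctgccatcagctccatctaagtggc
Searched on both strands were AGGTCA (nuclear receptor half-site), TCACNCCAC (SREBP site), TATAAA (the TATA box), CCAAT (the CCAAT box) and GGGCGG (the GC box). Of the 33469 rat promoters of the same length, 16.2% held the nuclear receptor half-site, 1.12% the SREBP site, 14.2% the TATA box, 37.5% the CCAAT box and 33.1% the GC box. AWAT1 held the CCAAT box on the opposite strand, at position -22 from the start, DGAT2L6 held it on the gene's own strand, at -102, and AWAT2 held the GC box, at -60. The other letters were not in these windows. No binding data are used here, and a match is only a description of the sequence.

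AWAT1 stood at 128, 43.0, 115 and 25.3 CPM in old skin, against 108, 279, 117, 133 and 151 CPM in young skin. Old replicates 2 and 4 were below every young sample, old replicates 1 and 3 lay within the young range, and young replicate 2 stood far above the rest. The mean was 77.9 ± 51.3 CPM in old and 157 ± 69.8 CPM in young skin, a log2 fold change of -1.01 ± 0.49 (adjusted p = 0.2005). AWAT2 stood at 168, 50.9, 232 and 78.2 CPM in old skin, against 93.1, 226, 125.6, 142 and 151 CPM in young skin. Here the old samples spread beyond the young ones at both ends. Its log2 fold change was -0.16 ± 0.42 (adjusted p = 0.831), and its sign turned when only library totals were used for scaling (0.080) and when young replicate 2, old replicate 2 or old replicate 4 was left out (0.048, 0.11 and 0.080).

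Although neither gene passed the test alone, the count of AWAT2 over that of AWAT1 within a sample separated the ages. This ratio was 1.31, 1.18, 2.02 and 3.09 in old skin, against 0.866, 0.811, 1.07, 1.07 and 1.01 in young skin. Every old sample was above every young one, with old replicates 3 and 4 the farthest away. The log2 ratio averaged 0.82 ± 0.63 in old and -0.06 ± 0.18 in young skin (SD, n = 4 and 5), a difference of 0.88. Its two-sided p was 0.00794 in an exact permutation test, the smallest that 9 samples split into 4 and 5 can give (adjusted over the 2 ratios tested, 0.0159). Leaving out each library in turn gave differences of 0.61 to 1.07. The ratio says nothing on which of the 2 genes changed.

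DGAT2L6, next to AWAT1 on the chromosome, had the highest log2 fold change of the 10 genes. It stood at 6.65, 0.93, 19.6 and 7.23 CPM in old skin, against 1.86, 3.31, 2.18, 3.48 and 5.25 CPM in young skin. In 3 of 4 old samples it was above every young one, while old replicate 2, with 18 counts, was below all of them. The mean was 8.60 ± 7.85 CPM in old and 3.22 ± 1.33 CPM in young skin, a log2 fold change of 1.42 ± 0.65 (adjusted p = 0.179). Without old replicate 2 it was 1.79 and passed (adjusted p = 0.0276), while without old replicate 3 it was 0.65 (adjusted p = 0.528) and with the skeletal muscle score as a covariate 0.62 (adjusted p = 0.599). Over the count of AWAT1, that of DGAT2L6 was 0.0520, 0.0215, 0.170 and 0.285 in old skin, against 0.0173, 0.0119, 0.0186, 0.0262 and 0.0349 in young skin. This ratio was added after the values were seen and was not tested; 3 of 4 old samples were above the young range and old replicate 2 was within it.

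**Figure D3:**
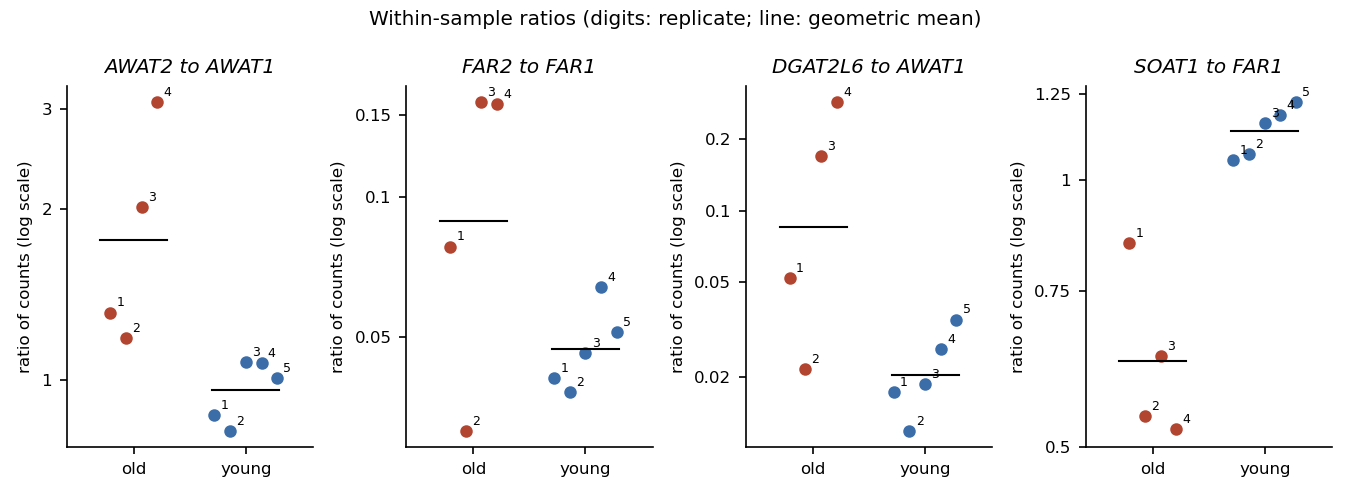
Within-sample ratios of counts (y axis, log scale) for 4 pairs of genes, old left of young. Digits are replicate numbers and lines geometric means. The ratios of AWAT2 to AWAT1 (old 1.18 to 3.09, young 0.811 to 1.07) and of SOAT1 to FAR1 do not overlap between ages; those of FAR2 to FAR1 and DGAT2L6 to AWAT1 do. The DGAT2L6 and SOAT1 ratios were added after the values were seen and carry no test.

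SOAT1, which esterifies cholesterol, stood at 107, 37.3, 147 and 40.3 CPM in old skin, against 131, 294, 166, 190 and 229 CPM in young skin. Old replicates 1, 2 and 4 were below every young sample, and old replicate 3 lay between young replicates 1 and 3. The mean was 82.9 ± 53.4 CPM in old and 202 ± 62.5 CPM in young skin, a log2 fold change of -1.28 ± 0.43 that missed the threshold (adjusted p = 0.0790). Without old replicate 3 it passed (-1.68, adjusted p = 0.0305), as it did in DESeq2 (adjusted p = 0.0141), in limma-voom (0.0460) and with a skeletal muscle covariate (0.0325). It passed in those 4 of 21 alternatives; among the others it was -1.05 when scaled by library totals (adjusted p = 0.158), -1.01 without old replicate 4 (adjusted p = 0.210) and -0.54 with the adipocyte score (adjusted p = 0.949). Over the count of FAR1, that of SOAT1 was 0.850, 0.542, 0.634 and 0.524 in old skin, against 1.05, 1.07, 1.16, 1.18 and 1.22 in young skin. Every old sample was below every young one in this ratio, which was added after the values were seen and has no test. Any reads shared with FAR1's overlapping gene model or pseudogene bear on it as well.

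Among 19 other glycerolipid and sterol acyltransferases and phosphatidate phosphatases tested, 2 fell and 4 rose (median log2 fold change -0.04). AGPAT9, an older symbol of GPAT3, rose, with 16.4 ± 4.31 CPM in old and 5.79 ± 1.12 CPM in young skin (log2 fold change 1.5 ± 0.21, adjusted p = 0.00217). The phosphatase PPAP2B (PLPP3) rose by 0.68 ± 0.13 (adjusted p = 0.00909). AGPAT3, a lysophosphatidate acyltransferase, fell, with 210 ± 71.6 CPM in old and 507 ± 168 CPM in young skin, a call lost without old replicate 4 (adjusted p = 0.0618). PPAP2C (PLPP2) fell by 0.67 on the log2 scale, a call lost when any of 7 libraries was left out (adjusted p up to 0.104). DGAT1 and DGAT2, the main triglyceride synthases, had log2 fold changes of 0.36 (adjusted p = 0.253) and 0.61 (adjusted p = 0.167).

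Of 12 hydrolases of stored esters tested, 2 fell and 2 rose (median log2 fold change -0.50). The 2 that rose, LIPE (hormone-sensitive lipase) and MGLL (monoglyceride lipase), had log2 fold changes of 1.70 ± 0.28 and 1.65 ± 0.23 (adjusted p = 0.00423 and 0.00221). LIPE is itself one of the 14 adipocyte markers. ABHD5, the co-activator of triglyceride lipase, fell, with 136 ± 23.9 CPM in old and 226 ± 31.9 CPM in young skin and no overlap (adjusted p = 0.0151). The call was lost without old replicate 4 (adjusted p = 0.0648). CES1E, a carboxylesterase, fell by 2.46 on the log2 scale (adjusted p = 0.0389), a call lost when any of 7 libraries was left out (up to 0.113). Limma-voom did not call CES1E (adjusted p = 0.0845). PNPLA2, a triglyceride lipase of the list, had no count in any sample and was not tested.

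ACSBG1, an acyl-CoA synthetase of the bubblegum family, activates long fatty acids before they are esterified. It stood at 230, 131, 341 and 259 CPM in old skin, against 198, 464, 420, 350 and 381 CPM in young skin. All 4 old samples were below young replicates 2 to 5, and young replicate 1 lay among the old ones. The mean was 240 ± 86.6 CPM in old and 362 ± 101 CPM in young skin, a log2 fold change of -0.59 ± 0.30 (adjusted p = 0.226).

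Of 21 other acyl-CoA synthetases, fatty acid transport proteins, acyl-CoA thioesterases and acyl-CoA binding proteins tested, 5 fell and 1 rose (median log2 fold change -0.15). SLC27A4, the fatty acid transporter FATP4 of skin, averaged 71.6 ± 11.04 CPM in old and 146 ± 30.7 CPM in young skin (log2 fold change -1.03 ± 0.18, adjusted p = 0.00597). ACSM3, a medium-chain synthetase, averaged 9.53 ± 4.04 CPM in old and 38.2 ± 13.1 CPM in young skin (-2.00 ± 0.37, adjusted p = 0.00751). ACSF2, of the wider acyl-CoA synthetase family, had a log2 fold change of -0.89 ± 0.19 (adjusted p = 0.0150). All 3 were lower in every old sample than in every young one. The 1 that rose, ACSL1, the main synthetase of adipocytes, averaged 507 ± 212 CPM in old and 216 ± 40.8 CPM in young skin (1.23 ± 0.28, adjusted p = 0.0168). With the adipocyte score as a covariate its log2 fold change was -0.19.

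MGST1, a microsomal glutathione transferase used as a sebocyte marker, stood at 306, 186, 268 and 298 CPM in old skin, against 204, 308, 183, 238 and 207 CPM in young skin. The old range lay within the young one, and the log2 fold change was 0.21 ± 0.20 (adjusted p = 0.502). Among 20 other members of the MAPEG and glutathione transferase families, 1 fell and 4 rose (median log2 fold change 0.17). The microsomal relative MGST3 fell, with 72.2 ± 14.9 CPM in old and 122 ± 16.5 CPM in young skin (adjusted p = 0.0149), a call lost without old replicate 4 (adjusted p = 0.0544). ALOX5AP, which serves leukotriene synthesis and is abundant in macrophages, rose by 1.42 ± 0.26 (adjusted p = 0.00716). The cytosolic transferases GSTT1 and GSTT2 rose by 1.27 ± 0.20 and 0.91 ± 0.17.

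FA2H, the fatty acid 2-hydroxylase, had the lowest log2 fold change of the 10 genes. Its promoter sequence is shown because FA2H had the lowest fold change and no overlap between ages (RefSeq, GRCr8, 250 bases before to 50 after the start). Capitals mark the CCAAT box, at positions -120 and -75 from the start, and the GC box, whose first base is base 265 of the 300.
FA2H (chr19:56273431-56273730, minus strand): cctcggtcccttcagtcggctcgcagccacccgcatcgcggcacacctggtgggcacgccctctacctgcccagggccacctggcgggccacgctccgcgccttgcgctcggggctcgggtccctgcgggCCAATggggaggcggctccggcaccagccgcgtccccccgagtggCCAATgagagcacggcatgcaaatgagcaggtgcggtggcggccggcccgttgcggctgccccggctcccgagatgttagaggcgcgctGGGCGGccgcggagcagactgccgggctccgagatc
FA2H stood at 2.85, 2.21, 2.61 and 0.91 CPM in old skin, against 3.88, 11.6, 4.30, 5.84 and 7.99 CPM in young skin. Every old sample was below every young one, with old replicate 4 the lowest and young replicate 2 the highest. The mean was 2.15 ± 0.867 CPM in old and 6.73 ± 3.18 CPM in young skin (SD, n = 4 and 5), a log2 fold change of -1.64 ± 0.42 (adjusted p = 0.0291, edgeR). It rests on 23 to 108 counts per old library and 73 to 204 per young one. The call was lost without any one of young replicates 2, 4 and 5 and old replicates 2 and 4, with adjusted p of 0.0509 to 0.0637 and log2 fold changes of -1.65 to -1.34. It was also lost with the skeletal muscle score (adjusted p = 0.0624) or the adipocyte score (-1.10, adjusted p = 0.928) as a covariate.

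FA2H also serves myelin, where hydroxylated fatty acids go into galactosylceramide, so markers of Schwann cells and myelin were read beside it. Of 16 such genes 0 fell (0 also at an unadjusted p under 0.05, in DESeq2 and in limma-voom) and 4 rose, and their summed level was 493 to 790 CPM in old and 223 to 314 CPM in young skin. The 4 that rose were S100B, which adipocytes also express, PMP22, a peripheral myelin protein, CNP, a myelin enzyme, and MAL, a myelin proteolipid. S100B, most of the difference in the sum, averaged 267 ± 139 CPM in old and 19.9 ± 12.7 CPM in young skin (log2 fold change 3.75, adjusted p = 0.00194). PMP22 averaged 139 ± 18.0 CPM in old and 70.9 ± 11.8 CPM in young skin, with no overlap (log2 fold change 0.98 ± 0.15, adjusted p = 0.00320). CNP and MAL had log2 fold changes of 0.51 (adjusted p = 0.0340) and 0.83 (adjusted p = 0.0453), calls lost when any of 4 and any of 8 libraries was left out. The call of MAL was also lost in limma-voom (adjusted p = 0.0598) and in edgeR without the filter on low counts (0.0554). MBP, a main protein of the myelin sheath, averaged 25.7 ± 7.88 CPM in old and 18.0 ± 4.92 CPM in young skin (log2 fold change 0.51, adjusted p = 0.250). UGT8, which makes galactosylceramide, averaged 1.26 ± 0.543 CPM in old and 1.00 ± 0.370 CPM in young skin (adjusted p = 0.617). Neither MBP nor UGT8 passed the test, and MAG, another myelin protein, was under 1.1 CPM in every sample.

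Around FA2H, 22 genes of sphingolipid synthesis and hydroxylated fatty acid handling were tested, of which 9 fell and 2 rose (median log2 fold change -0.14). The ceramide synthase CERS4 averaged 33.2 ± 6.96 CPM in old and 86.5 ± 12.9 CPM in young skin (log2 fold change -1.38 ± 0.17, adjusted p = 0.00165). HACL1, which breaks down 2-hydroxy fatty acids in peroxisomes, averaged 103 ± 44.9 CPM in old and 467 ± 191 CPM in young skin (-2.18 ± 0.42, adjusted p = 0.00849). DEGS2, which hydroxylates the sphingoid base, averaged 24.4 ± 5.86 CPM in old and 61.5 ± 19.1 CPM in young skin (-1.34 ± 0.26, adjusted p = 0.00851). All 3 were lower in every old sample than in every young one. CERS2 rose, by 0.55 ± 0.11 (adjusted p = 0.0122). Across the alternatives other than the adipocyte covariate the count that fell ran from 3 to 9.

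With each age's mean taken off, the 10 genes varied together from animal to animal. Over the 45 pairs of genes the Pearson correlation of log2 CPM in 9 samples was above 0 in 45, with a lowest of 0.18 (DGAT2L6 with FA2H), a median of 0.74 and a highest of 0.98 (AWAT2 with SOAT1). DGAT2L6 and FAR2 followed each other at 0.97, and MGST1 had the lowest median with the rest, 0.56. The points share library, scaling and tissue sample, and no test is attached. The share of positive pairs among all genes tested was not computed, so this is not shown to be particular to the 10 genes. Old replicate 3 was the highest old sample for 7 of the 10 genes and old replicate 1 for 3, while old replicate 2 was the lowest for 7 and old replicate 4 for 3. Young replicate 2 was the highest young sample for 9 and young replicate 1 the lowest for 9. The summed level of the 10 genes was 1089, 528, 1403 and 802 CPM in old skin, against 879, 1889, 1179.5, 1246 and 1344 CPM in young skin, and the groups overlapped.

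**Figure D4:**
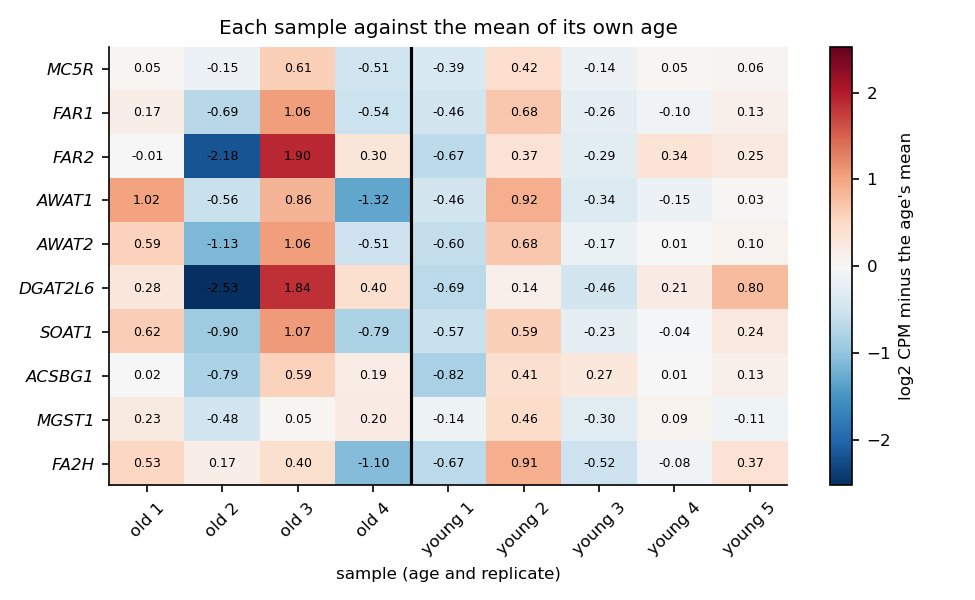
Log2 CPM of each gene (rows) in each sample (columns, old left of young) minus the mean of its own age, as colour and number. Old replicate 3 is above its age's mean for 10 of 10 genes and old replicate 2 for 1; young replicate 2 is above for 10 and young replicate 1 for 0.

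The genes most like AWAT2, taken among the 3 X-linked acyltransferases for its mean CPM over all samples, were ranked by Pearson correlation of log2 CPM. Over all 9 samples the first 5 were RGD1559622 (0.97), HSD3B (0.97), PLIN2 (0.96), CROT (0.96) and GK (0.95). PLIN2 coats lipid droplets, CROT is the peroxisomal carnitine octanoyltransferase and GK is glycerol kinase. With the age means taken off they were RGD1311648, ECHDC1, HSD17B7, DISP2 and LOC100911041, at 0.98 to 0.99. ECHDC1 is an ethylmalonyl-CoA decarboxylase and HSD17B7 an enzyme of cholesterol synthesis. None of these 10 passed the test between ages, with log2 fold changes of -1.21 (DISP2, adjusted p = 0.0556) to 0.12. All 10 were picked as the highest correlations among the genes tested, over 9 samples, and no test is attached. HSD3B was low, with means of 0.904 CPM in old and 0.940 CPM in young skin.

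Of the 25 other sebocyte markers tested, 6 fell and 1 rose, with a median log2 fold change of -0.25. With each library left out the falls numbered 2 to 6, and 2 without old replicate 4. ELOVL3 fell by 2.37 ± 0.45 (adjusted p = 0.00810) and MUC1, a mucin of the gland, by 2.41 ± 0.58 (adjusted p = 0.0222). PLIN5, a lipid droplet protein, fell by 1.59 ± 0.41 (adjusted p = 0.0291), a call lost without young replicate 4 or old replicates 2, 3 or 4 (adjusted p up to 0.0875). ABHD5, described among the hydrolases, was another that fell. PPARG, the nuclear receptor of both sebocytes and adipocytes, was the 1 that rose (0.78 ± 0.22, adjusted p = 0.0450), and is named after its value was seen. Leaving out any of 6 libraries (young replicates 1, 3, 4 and 5, old replicates 1 and 4) ended that call, as did dropping the filter on low counts. KRT79 and CIDEA did not pass, with log2 fold changes of -0.23 (adjusted p = 0.656) and -0.74 (adjusted p = 0.154). The summed level of the list was 1725 to 3140 CPM in old and 2903 to 5439 CPM in young skin.

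Markers of other cells moved with age beside these genes. Macrophage markers rose in 15 of 15, with a summed level of 661 to 1420 CPM in old and 161 to 348 CPM in young skin, and adipocyte markers in 12 of 14. Of 16 suprabasal keratinocyte markers 7 fell and 0 rose by edgeR (0 rose in DESeq2, in limma-voom or at an unadjusted p under 0.05; median log2 fold change -0.88), among them TGM3 (-1.66, adjusted p = 0.00353), CASP14 (-2.36, adjusted p = 0.00792) and IVL (-0.85, adjusted p = 0.00837). Of 10 basal markers 1 fell, KRT14, a call lost without young replicate 2, young replicate 4 or old replicate 4. Hair follicle markers spanned 246 to 12881 CPM in old and 217 to 32732 CPM in young skin in their sum, and edgeR called 0 of 26 in either direction (1 fell and 0 rose at an unadjusted p under 0.05 and in DESeq2, and limma-voom called 0). Skeletal muscle markers summed to 26599 to 151905 CPM in old and 70517 to 172815 CPM in young skin. Of 20 tested, edgeR called 2 falls and 1 rise, and 1 to 2 falls and 1 rise with each library left out. The part of these cells in the results on the 10 genes was not tested beyond the covariate fits given.

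**Figure D5:**
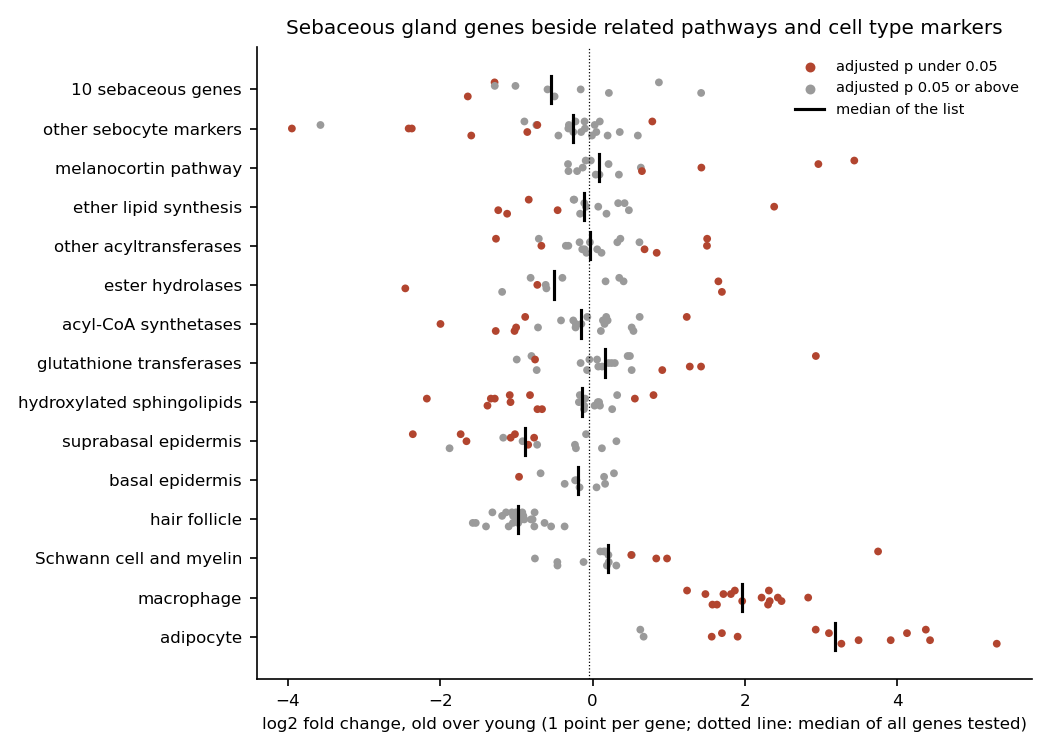
Log2 fold change, old over young (x axis), of every tested gene of the 10 sebaceous genes and of related pathways and cell types (rows; 1 point per gene, red where the adjusted p is under 0.05; vertical bars are medians). The row labelled ether lipid synthesis also holds genes of ether lipid breakdown and of peroxisomal import. The dotted line is the median of all genes tested, -0.05. The 10 genes have a median of -0.55, between the adipocyte list at 3.18 and the hair follicle list at -0.98.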

How the data were processed

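RNA of 9 rat skin samples was column-purified (Qiagen RNeasy). Libraries of its polyadenylated fraction were prepared with TruSeq RNA v2, per the labels' protocols, a kit without strand marking. BWA is named in the submitters' processing notes, with no version. Genome build, annotation and counting rule: not given in the sources used here. The authors deposited unnormalized read counts for each gene symbol. Columns were matched to samples by title, and groups taken from the labelled age.

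Genes were filtered by filterByExpr of edgeR (a count of at least 10, a total of at least 15). Ages were compared by edgeR's quasi-likelihood test (edgeR 4.0.16, R 4.3.3; TMM, no covariate), with Benjamini-Hochberg adjustment over 14933 genes at 0.05. The SE was approximated by dividing the log2 fold change by the root of F. Ratios were tested on log2 of counts plus 0.5, by two-sided exact permutation over all splits, and the ratios printed are of counts alone. DESeq2 1.42.0 and limma 3.58.1 (voom), other scalings, filters, thinning, covariates, a replicate block and leaving out each library were alternatives. The fit was tested on simulated data. No 2 samples of an age were repeated libraries by a chi-square comparison of counts.

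The genes and the 15 lists beside them were chosen with earlier results of these data known. Of 310 list entries, 289 were found under their own symbol, 8 under another name through RefSeq's synonyms, and 13 were unmatched. LCE3C was matched in this way to the row LCE3D, which had too few counts to be tested. Up to 4 genes past the threshold were named per list (smallest adjusted p, mean CPM of at least 1), and the 5 genes most like AWAT2 by each measure. Promoters are RefSeq's, assembly GRCr8, which held 9 of the 10 genes (not MC5R).

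Some genes of the lists are counted but not reported here by name.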

Additional observations from a re-analysis of the deposited data

Results flagged for a closer look

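One sample stood apart from the rest of its age. AWAT1 in young replicate 2 was at 279 CPM, while the other young samples lay between 108 and 151 CPM, and the gap to the nearest was 0.749 of the young group's range. Among 28 groups of values checked in this way, chance marks about 1 in 20. The same library was the highest young sample for 9 of the 10 genes. The log2 fold change of AWAT1 without it was -0.70 (adjusted p = 0.378).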

How the results depend on the processing

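Each gene was refitted under 21 alternatives. MC5R passed in 20 of them and FA2H in 12. Of the 10 genes, 1 fell with the replicate block (FA2H lost its call there, adjusted p = 0.0839), 0 with the adipocyte score as covariate, 1 at an adjusted p under 0.01, and 1 to 3 with each library left out, where 0 to 1 rose. Across all genes, 659 fell in the reported fit, against 1280 in DESeq2, 312 with library totals alone, 1023 and 1096 with the hair follicle and skeletal muscle scores as covariates, 138 under 0.01, and 236 to 786 with a library left out (under 400 without young replicate 2, 3 or 4 or old replicate 4). Of the 1437 that rose, 702 stayed past 0.01. The adipocyte covariate left 0 in either direction. Library totals alone moved the median of all genes to 0.11, and rises were 86.2% of calls there, 78.0% with upper quartile scaling and 68.6% in the reported fit. Signs turned for AWAT2 with library totals (0.080), the adipocyte score (0.58) and leaving out a library (-0.54 to 0.11), and for FAR2 with the skeletal muscle score (-0.031) and leaving out a library (-0.025 to 1.23). With the adipocyte score they also turned for FAR1 (0.37), ACSBG1 (0.094), MGST1 (-0.22), LIPE (-0.11), ACSL1 (-0.19), DEGS2 (0.057) and KRT1 (0.075). The log2 ratio of FAR2 to FAR1 ran from 0.63 to 1.41 with a library left out. The cause of these changes was not tested. For 51 genes named from lists, 937 of 1020 refits without the adipocyte score kept direction and side of the threshold, 83 lost the call and 0 turned. With a library left out, list counts that moved by over 1.5 times ran, for falls, at 0 to 3 for other acyltransferases, 0 to 4 for ester hydrolases, 2 to 3 for ether lipid genes, 3 to 5 for acyl-CoA synthetases, 0 to 2 for glutathione transferases, 3 to 8 for sphingolipid genes and 3 to 9 for suprabasal markers, and, for rises, at 2 to 6 for other acyltransferases, 1 to 2 for ether lipid and for sphingolipid genes and 2 to 4 for myelin genes. Old replicate 4 moved all of these but the rises of ether lipid genes, which old replicate 2 moved. Library totals alone ended the calls of ABHD5, PPAP2C, TMEM189 and KRT14, and upper quartile scaling that of TMEM189.

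The replicate numbers name different animals and did not pair the samples: same-numbered old and young samples correlated at 0.66, -0.11, 0.004 and -0.44, and only number 1 correlated best with its own. With the numbers as a block, 646 genes fell and 1158 rose. With 4 old animals, 1 library can decide a call, and genes near 1 CPM rest on few counts.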

Other observations

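ASIP, the antagonist of melanocortin receptors, was outside the tested genes, since the filter asks for counts in more libraries than the 2 that held most of them, and is named after its values were seen. It had 2, 3, 130 and 83 counts in old replicates 1 to 4, which is 0.0528 to 3.78 CPM, and 0 counts in all 5 young samples. The high values came from old replicates 3 and 4.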
